A study of Mus musculus with 15 samples.

Results

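A set of 37 genes of fatty acid oxidation and ketone metabolism was followed through whole ovaries of UM-HET3 mice, an outbred-like stock bred from several inbred strains in which each animal carries its own mix of alleles. The genes were chosen by name, as enzymes, carriers and 1 transcription factor of the pathway, and were kept where the deposited value was at least 10 in at least 5 of the 15 libraries. All 37 met that minimum, out of 24656 genes listed, of which 17569 met it. The 37 were grouped by step into 6 for uptake and binding, 4 for activation, 5 for the carnitine shuttle, 15 for mitochondrial oxidation, 3 for peroxisomal oxidation, 3 for ketones and 1 regulator.

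The 3 groups of 5 mice were compared. The canagliflozin group was 12 months old and had received the drug for the last 6 months, the 12-month controls were untreated and of the same age, and the 6-month controls were untreated and younger. Assignment was random at 6 months of age, per the labels' protocols. Libraries were made from polyadenylated RNA, and for the 12-month groups the labels' protocols describe RNA from 1 ovary of each mouse. How RNA was extracted from the 6-month ovaries is not given in the sources used here, so that age and any difference in handling cannot be told apart. Canagliflozin inhibits SGLT2, which recovers glucose from the filtrate of the kidney, and drugs of this class are known to raise circulating ketones.

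Cells oxidise long-chain fatty acids in steps. Membrane proteins and cytosolic binding proteins bring the fatty acid in, an acyl-CoA synthetase activates it, and carnitine carries it across the mitochondrial membranes. A repeating cycle of dehydrogenase, hydratase, dehydrogenase and thiolase then shortens the chain, with electrons handed to the respiratory chain through the electron transfer flavoprotein. Peroxisomes shorten the longest chains, and ketone bodies are burned through a short route of their own. In the ovary, fatty acid oxidation is known from oocytes and their cumulus cells, and the luteal cells that make progesterone hold large lipid stores.

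Recovered depth (M standing for the SI prefix mega) was 11.2 ± 1.85 M reads in canagliflozin ovaries, 12.2 ± 0.720 M reads in 12-month control ovaries and 12.5 ± 0.729 M reads in 6-month control ovaries (mean ± SD, n = 5 each). Values are size-factor-normalised reads per gene. Differences were taken after adding 1 and going to log2, so those of weakly expressed genes come out smaller than they are. Genes were called at a limma adjusted p under 0.05 over all 17569 genes tested. All 10 corpus luteum markers and all 8 granulosa markers, and 9 of 10 oocyte markers, reached 10 in every library. Canagliflozin replicate 2 was the shallowest library, at 8.47 M reads, and 12-month control replicate 3 held the highest summed haemoglobin and red cell markers, at 18087 against 168 to 7442 in the other 12-month libraries.

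Set beside the 12-month controls, none of the 37 genes was called after canagliflozin. Their median log2 fold change was 0.01, against 0.00 over all genes tested (-0.00186 before rounding), with 19 positive and 18 negative. The background for that count was a share of 0.00569% of all genes called, which is 1 gene of 17569. The only gene of the 37 with an unadjusted limma p under 0.05 was Cd36, where 9.2% of all genes passed that mark. No gene of the 37 had groups that did not overlap, against 1.05% of all genes. On the recovered reads edgeR called 0 of the 37 and 9 of all 17569 genes, and DESeq2 called 1 of the 37, Cd36, and 63 of all genes. The interval of the difference says how much change these data allow. For 28 of the 37 the 95% interval lay within a 1.5-fold change in either direction and for 32 within 2-fold, and the 5 that reached beyond were Cd36, Fabp3, Acsl1, Acsl4 and Bdh1.

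With age, 4 of the 37 were called between the 12-month and the 6-month controls, 2 higher (Cd36 and Fabp5) and 2 lower (Slc27a6 and Hadha). Of all genes tested 12.4% were called in that comparison, 5.4% higher and 7.01% lower, so that a share of this kind among 37 is near the background. Groups did not overlap for 7 of the 37, against 13.7% of all genes, and 13 had an unadjusted limma p under 0.05, against 27.4%. The signs were 9 positive and 28 negative, and the median log2 fold change was -0.11, against 0.00 over all genes (0.00393 before rounding). Between canagliflozin and 6-month control ovaries 11 of the 37 were called, 2 higher and 9 lower, against 28.4% of all genes, 13.5% higher and 14.9% lower. Scaled to equal library totals, the calls over all genes in that comparison were 1622 higher and 3598 lower, in place of 2372 and 2610. The median there was -0.16, against 0.01 over all genes, again with 9 positive and 28 negative. Groups did not overlap for 5 of the 37, against 18.5% of all genes. The comparisons share groups, and so they are not independent of each other. In the group means, the 6-month controls were the highest of the 3 groups for 24 of the 37 and the lowest for 6, against 40.5% and 43.4% of all genes tested.

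**Figure D1:**
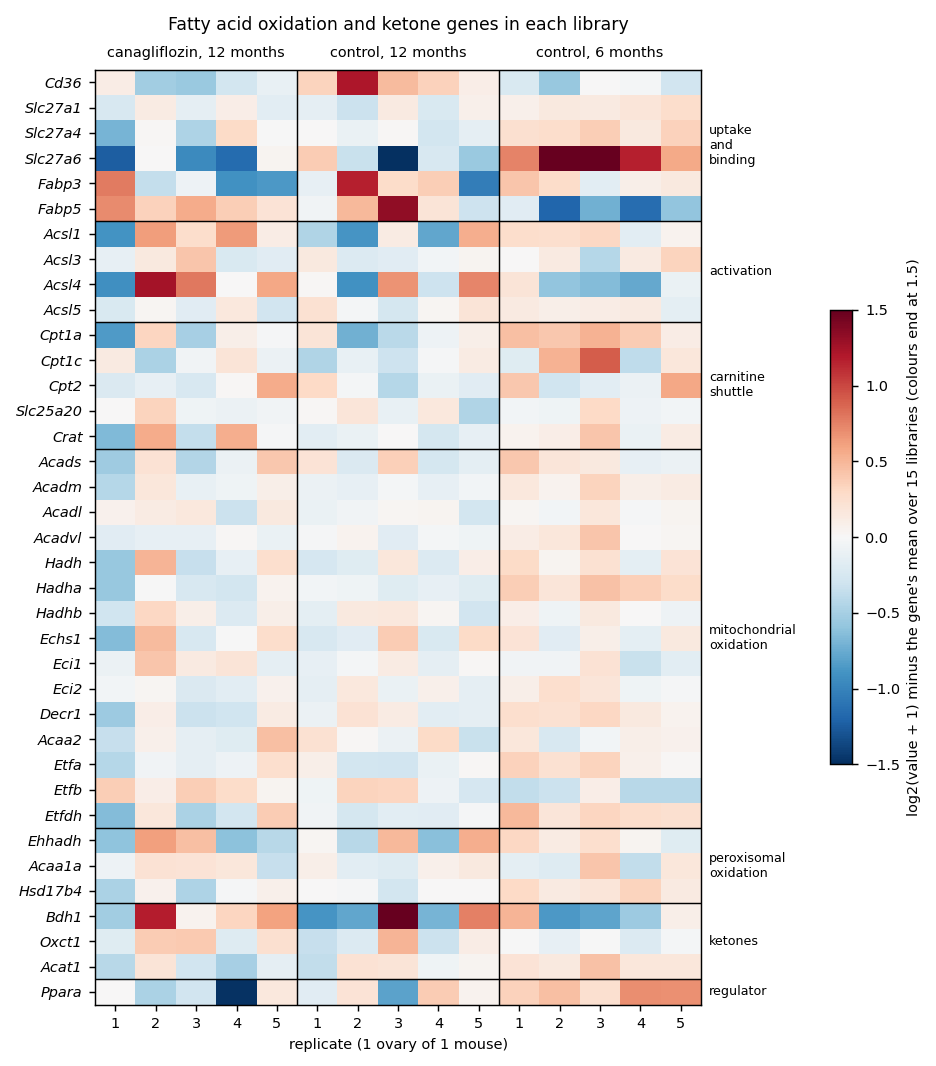
Each row is 1 gene, ordered by step, and each column 1 library (replicates 1 to 5 of the canagliflozin group, the 12-month controls and the 6-month controls). Colour gives log2(value + 1) minus the gene's mean over the 15 libraries, and canagliflozin replicate 1 is the lowest of its group for 20 of the 37 genes.

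**Figure D2:**
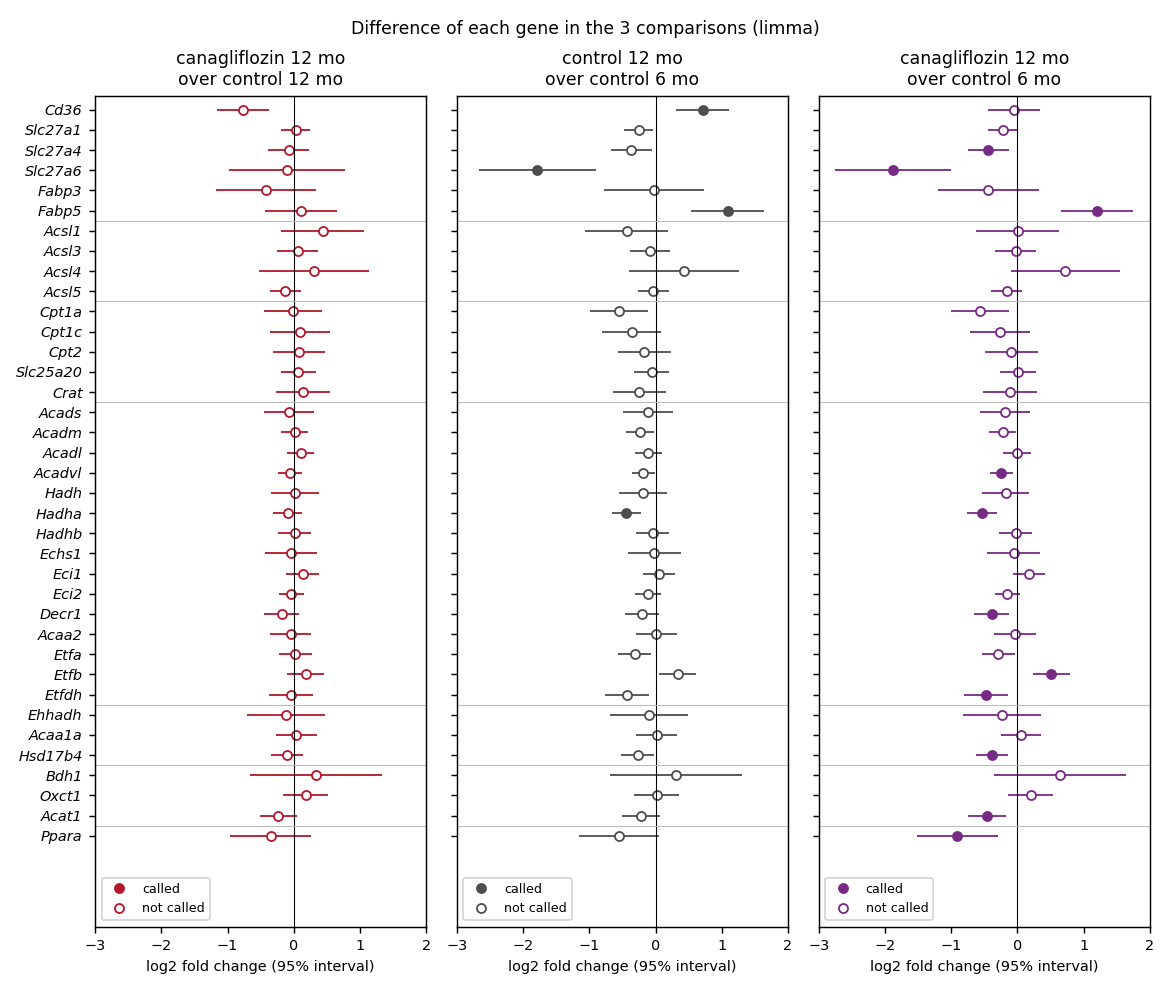
Points are limma log2 fold changes with 95% intervals for the 37 genes in the 3 comparisons, filled where the gene was called. The left panel has 0 filled points, the middle panel 4 and the right panel 11.

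Levels spanned a wide range. Per kilobase of the longest annotated transcript, the highest mean levels in 12-month control ovaries were those of Acaa2 (1924 normalised reads per kilobase), Etfb (1743), Hadh (1181) and Echs1 (1135). Acaa2 is a thiolase of the mitochondrial cycle. The lowest were those of Ehhadh (27.1), Slc27a6 (27.0) and Ppara (10.9). Spread between animals was wider in canagliflozin ovaries, where the median coefficient of variation over the 37 was 19.96%, against 15.7% in 12-month control ovaries and 12.0% in 6-month control ovaries. Whether this was particular to the 37 was not tested by the same measure. Genome-wide, the chi-square per degree of freedom between library pairs, in which genes with many reads weigh most, was 26.8 to 59.6 in canagliflozin ovaries. It was 12.7 to 46.2 in 12-month control ovaries and 14.6 to 35.9 in 6-month control ovaries. Canagliflozin replicate 1 was the lowest of its group for 20 of the 37 genes, against 23.2% of all genes tested, and replicate 2 was the highest for 14 of the 37, against 23.6%. The same 2 libraries were the ends of the group for most corpus luteum markers. Replicate 1 was the lowest for 8 of 10 and the highest for 1, Inhba. Replicate 2 was the highest for 7 of 10 and the lowest for 2, Akr1c18 and Inhba. In a bulk sample, fewer cells of a type and less RNA per cell cannot be told apart.

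Cd36 (ENSMUSG00000002944), the membrane receptor that takes up long-chain fatty acids and oxidised lipoproteins, had the smallest p of the 37 in the drug comparison. Its normalised reads were 275, 177, 173, 210.2 and 237 in canagliflozin ovaries, 323, 592, 355, 325 and 274 in 12-month control ovaries and 218, 172, 256, 250.1 and 209 in 6-month control ovaries. The 12-month controls were the highest of the 3 groups, replicate 2 of that group stood far above the rest, and the canagliflozin values lay mostly among those of the 6-month controls. Canagliflozin replicate 1 and 12-month control replicate 5 were alike, so that these groups overlapped. Against the 12-month controls the difference with canagliflozin was 0.588-fold (95% interval 0.445 to 0.775, log2 fold change -0.77 with an SE of 0.19 and limma adjusted p = 0.291), which limma did not call. DESeq2 on the recovered reads did call it (log2 fold change -0.80, adjusted p = 0.0372). Between the 12-month and 6-month controls Cd36 rose 1.64-fold (log2 fold change 0.72 with an SE of 0.19 and limma adjusted p = 0.0202), with no overlap between the groups. The canagliflozin group and the 6-month controls differed by 0.965-fold (95% interval 0.731 to 1.27).

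The age call of Cd36 depended on the setting. It was lost with a fat cell marker score as a covariate (log2 fold change 0.54, limma adjusted p = 0.238), without 6-month control replicate 2 (0.63, adjusted p = 0.059) and with edgeR on 12 libraries (0.75, adjusted p = 0.0597, a setting chosen after seeing the data). That score is the mean, over the 8 fat cell markers tested (Plin4 and Plin1 included), of log2(value + 1) minus the gene's mean. It ran from -1.30 to -0.60 in 6-month control ovaries and from -0.71 to 1.95 in 12-month control ovaries. Of the 8 fat cell markers tested, 5 were called higher in the same comparison, where 12.4% of all genes were called. Plin4 (log2 fold change -0.73), Plin1 (-0.31) and Acvr1c (-0.00315) were not called. The summed level of 9 fat cell markers (the list without Plin4 and Plin1, which are high in every group) ran from 25.02 to 189 in canagliflozin ovaries, from 45.0 to 499 in 12-month control ovaries and from 21.8 to 40.0 in 6-month control ovaries. The library with 499 was 12-month control replicate 2, which also held the highest Cd36, while replicate 3 of that group had the lowest sum, 45.0, and a Cd36 value of 355. With Plin4 and Plin1 included the sums were 2394.9 to 14948 in canagliflozin ovaries, 1387.8 to 8983 in 12-month control ovaries and 2496.3 to 16545 in 6-month control ovaries.

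Sequence upstream of Cd36 is shown because it holds the hexamer AGGTCA, the half-site bound by nuclear receptors of the PPAR family, and because Cd36 is a textbook PPAR target. The 250 bases before the RefSeq start of transcription are at chr5:17835897-17836146 (GRCm38.p6, minus strand, written 5′ to 3′ along the gene), with the half-site in capitals, here as its reverse complement TGACCT.
Cd36: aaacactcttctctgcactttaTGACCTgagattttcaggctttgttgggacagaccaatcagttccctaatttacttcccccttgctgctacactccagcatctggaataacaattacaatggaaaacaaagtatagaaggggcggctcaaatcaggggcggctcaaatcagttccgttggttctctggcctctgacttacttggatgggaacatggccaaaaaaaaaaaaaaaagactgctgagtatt
The capitals begin 228 bases before the start. Promoter windows of RefSeq were at hand for 30 of the 37 genes. AGGTCA was on either strand in any window of 6 of the 30 (Acadm, Acadvl, Cd36, Cpt1a, Cpt1c and Echs1). That is a share of 20%, against 15.8% of 27025 genes with windows of the same length. The direct repeat of 2 such hexamers with 1 base between them was in 0 of the 30, against 0.0407% of genes, and the extended half-site TNAAGGTCA, which overlaps the hexamer, was in 0 of the 30, against 1.30%. A match describes letters in this window and does not show a site in use.

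Slc27a6 (ENSMUSG00000024600), a fatty acid transport protein known in humans from heart muscle, fell with age. Normalised reads were 36.5, 87.9, 44.4, 38.7 and 90.1 in canagliflozin ovaries, 114, 68.9, 20.2, 73.8 and 59.0 in 12-month control ovaries and 147, 297, 323, 197 and 129.9 in 6-month control ovaries. Every 6-month library lay above every 12-month library of both groups, and the 12-month groups overlapped throughout. The 12-month controls held 0.290 times the level of the 6-month controls (95% interval 0.158 to 0.533, log2 fold change -1.78 with an SE of 0.41 and limma adjusted p = 0.0107), and the canagliflozin group 0.272 times (log2 fold change -1.88 with an SE of 0.41 and limma adjusted p = 0.00359). The direct drug difference was -0.10 on the log2 scale. Its 95% interval was wide, 0.509 to 1.72-fold, so these data allow a drug difference anywhere inside those bounds.

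Fabp5 (ENSMUSG00000027533), a cytosolic fatty acid binding protein, rose with age. It had 533, 414, 478, 422 and 375 normalised reads in canagliflozin ovaries and 315, 455, 817, 371 and 261 in 12-month control ovaries. The 6-month controls had 288, 143, 197, 148 and 215. All canagliflozin libraries exceeded all 6-month libraries, whereas 12-month control replicate 5 lay within the 6-month range and replicate 3 stood highest of all. Fabp5 was 2.13-fold higher in the 12-month than in 6-month control ovaries (log2 fold change 1.09 with an SE of 0.26 and limma adjusted p = 0.0122) and 2.30-fold higher in canagliflozin ovaries than in 6-month control ovaries (log2 fold change 1.201 with an SE of 0.26 and limma adjusted p = 0.00312). Separately listed genes Gm6166 and Gm14328 match the Fabp5 transcript at 98.3% and 97.3%, so reads may be split among them. With their values added the age difference was 0.83 (adjusted p = 0.0291, limma), still a call.

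Slc27a4 (ENSMUSG00000059316), another fatty acid transport protein, had 433, 715, 509, 863 and 702 normalised reads in canagliflozin ovaries, 708, 657, 710.4, 581 and 641 in 12-month control ovaries and 831, 844, 911, 779 and 894 in 6-month control ovaries. The controls of the 2 ages did not overlap, and canagliflozin replicate 4 reached into the 6-month range. Slc27a4 was called lower in canagliflozin ovaries than in 6-month control ovaries (log2 fold change -0.44 with an SE of 0.15 and limma adjusted p = 0.0328) and was not called between the controls (log2 fold change -0.37, limma adjusted p = 0.112). Slc27a1, a further transport protein, averaged 2468 ± 279, 2422 ± 338 and 2868 ± 134 in canagliflozin ovaries, the 12-month controls and the 6-month controls, and Fabp3, the heart-type binding protein, 199 ± 107, 271 ± 143 and 247 ± 36.1. Neither was called in any comparison, and Fabp3 ranged from 117 to 377 within canagliflozin ovaries alone.

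**Figure D3:**
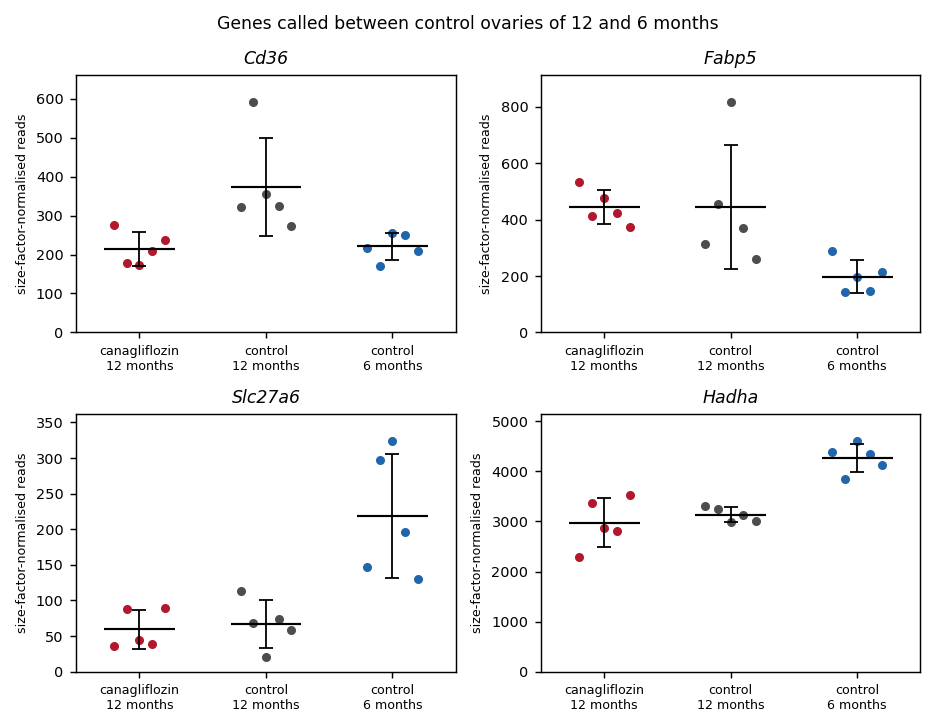
Size-factor-normalised reads of the 4 genes called between the 12-month and the 6-month controls, with 1 point per library, the mean as a line and the SD as bars (n = 5). All 6-month values of Slc27a6 and Hadha sit above all 12-month values, and the Cd36 values after canagliflozin, 173 to 275, overlap those of the 6-month controls, 172 to 256.

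Activation of fatty acids by the long-chain acyl-CoA synthetases Acsl1, Acsl3, Acsl4 and Acsl5 gave no call in any of the 3 comparisons. Acsl1 (ENSMUSG00000018796), the main synthetase of muscle and fat, had the smallest p of the 4 in the drug and the age comparison. Its normalised reads were 149.7, 434, 336, 437 and 303 in canagliflozin ovaries, 204, 151, 305, 163 and 408 in 12-month control ovaries and 337, 333, 348, 251.8 and 290.5 in 6-month control ovaries. Both 12-month groups spread about as widely as their own mean difference and overlapped, and the 6-month values lay inside both. The drug difference of Acsl1 was 0.44 on the log2 scale (SE 0.30, limma adjusted p = 0.656) and the age difference -0.44 (adjusted p = 0.369). Acsl4, which prefers arachidonic acid, varied most, from 1349.6 to 6086 in canagliflozin ovaries, from 1360.2 to 4249 in 12-month control ovaries and from 1495 to 2927 in 6-month control ovaries. Its lowest and highest canagliflozin values came from replicates 1 and 2, as for most of the luteal markers. Acsl3 and Acsl5 stayed within a narrower range, with drug intervals of 0.842 to 1.29-fold and 0.780 to 1.08-fold.

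Cpt1a (ENSMUSG00000024900), the carnitine palmitoyltransferase of the outer mitochondrial membrane and the step at which malonyl-CoA holds back oxidation, had 1828, 4115, 2338, 3493 and 3249.7 normalised reads in canagliflozin ovaries. The 12-month controls had 3769, 1994, 2494, 3132 and 3483, and the 6-month controls 4487, 4343, 4724, 4301 and 3539. Both 12-month groups were widely spread, and their highest libraries passed the lowest 6-month value. No comparison called Cpt1a, though the 6-month mean was the highest (12-month over 6-month controls, log2 fold change -0.56 with an SE of 0.21 and limma adjusted p = 0.092, and canagliflozin over 6-month controls, -0.56, adjusted p = 0.0524). The drug difference was -0.01 (95% interval 0.735 to 1.35-fold). Crat (ENSMUSG00000026853), which exports acetyl groups as acetylcarnitine, was the shuttle gene with the smallest p in the drug comparison. It had 454, 1053, 558, 1044 and 709 in canagliflozin ovaries, 644, 668, 721, 599.9 and 657 in 12-month control ovaries and 743, 767, 955, 669 and 783 in 6-month control ovaries, and the canagliflozin libraries spread on both sides of the closely grouped 12-month controls. The drug difference of Crat was 0.14 (limma adjusted p = 0.83). Cpt1c, a form known from neurons, Cpt2, the transferase of the inner membrane, and Slc25a20, the carnitine-acylcarnitine carrier between them, had drug differences of 0.10, 0.08 and 0.07, and none was called in any comparison.

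Mitochondrial oxidation held 15 genes, and their drug differences were small. Log2 fold changes against the 12-month controls ran from -0.18 (Decr1) to 0.18 (Etfb), and every one of the 15 intervals lay between 0.731-fold and 1.37-fold. Over the same comparison the share of reads from the mitochondrial genome was 7.39 ± 1.67% in canagliflozin ovaries and 4.17 ± 0.292% in 12-month control ovaries (n = 5 each, p = 0.00794 in a two-sided exact permutation test, the smallest this design allows). It was 2.98 ± 0.201% in 6-month control ovaries. With age 1 of the 15 was called, Hadha, lower, against 12.4% of all genes. Between canagliflozin and 6-month control ovaries 5 of the 15 were called, Etfb higher and Acadvl, Hadha, Decr1 and Etfdh lower, against 28.4% of all genes, so these counts are near the background.

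Hadha (ENSMUSG00000025745) encodes the alpha subunit of the trifunctional protein, which carries the hydratase and dehydrogenase steps for long chains. It had 2287, 3377, 2878, 2804 and 3525 normalised reads in canagliflozin ovaries, 3310.02, 3248, 2991, 3132 and 3007 in 12-month control ovaries and 4380.4, 3856, 4596, 4350.2 and 4125 in 6-month control ovaries. Every 6-month library exceeded every 12-month library of both groups, and 12-month controls were closely spaced. Hadha fell to 0.737 of the 6-month level in 12-month control ovaries (95% interval 0.631 to 0.860, log2 fold change -0.44 with an SE of 0.11 and limma adjusted p = 0.0124) and to 0.691 in canagliflozin ovaries (log2 fold change -0.53 with an SE of 0.11 and limma adjusted p = 0.00169). The drug difference at 12 months was -0.09 (adjusted p = 0.789, limma). Of the 29 other settings tried, only the fat cell score as a covariate ended the age call (log2 fold change -0.47, limma adjusted p = 0.0779). Annotated exons of Hadha and Garem2, a protein-coding gene on the opposite strand, share 75 bases.

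Hadhb (ENSMUSG00000059447) encodes the beta subunit, the thiolase of the same complex. Its normalised reads were 728, 1116, 956, 780.1 and 956 in canagliflozin ovaries, 812, 992, 1002, 916 and 736 in 12-month control ovaries and 962, 858, 997, 901 and 854 in 6-month control ovaries. All 3 groups overlapped, with log2 fold changes of 0.02 for the drug, -0.04 for age and -0.03 for canagliflozin over the 6-month controls. That value is uncertain, because the separately listed gene Gm13910 matches the Hadhb transcript at 99.8% over 1428 bases and holds as many reads. Gm13910 had 447, 971, 546, 555 and 979 in canagliflozin ovaries, 960.5, 1029, 601, 1014 and 901 in 12-month control ovaries and 1405, 1242, 1434, 1469 and 1377 in 6-month control ovaries. Every 6-month value of Gm13910 exceeded every 12-month value of both groups. It was called lower in canagliflozin ovaries than in 6-month control ovaries (log2 fold change -1.06, limma adjusted p = 0.00154) and stood just outside the call between the controls (-0.64, adjusted p = 0.0511).

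Reads of Hadhb and its copies may have been assigned to either, so the values of Hadhb, Gm13910 and AC108858.2 were also added up, a choice made after seeing the data. The sums were 1194, 2141, 1522, 1349 and 1974 in canagliflozin ovaries, 1806, 2054, 1626, 1963 and 1673 in 12-month control ovaries and 2423, 2170.3, 2485, 2427 and 2279 in 6-month control ovaries. Added up, the 6-month libraries again lay above all others, as for Hadha. The summed log2 fold change was -0.56 in canagliflozin over 6-month controls (limma adjusted p = 0.0065, a call), -0.37 with age (adjusted p = 0.0862, no call) and -0.19 with the drug (adjusted p = 0.676, no call). For Hadhb the call thus depended on whether the near-identical genes were added.

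Hadha and Hadhb are encoded head to head on chromosome 5, and their RefSeq starts are 273 bases apart, so that the upstream windows of both overlap. The stretch between them is shown as the upstream sequence that both subunit genes share, read along Hadhb at chr5:30155003-30155252 (GRCm38.p6, plus strand, 5′ to 3′, RefSeq), and it is all in lower case because it holds 0 copies of AGGTCA on either strand.
Hadhb: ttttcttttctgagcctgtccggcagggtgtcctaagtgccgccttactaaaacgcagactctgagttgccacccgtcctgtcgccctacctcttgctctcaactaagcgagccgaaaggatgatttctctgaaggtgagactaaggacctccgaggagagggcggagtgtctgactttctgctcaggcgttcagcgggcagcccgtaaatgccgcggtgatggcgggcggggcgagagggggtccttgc
Of its bases 58.8% are G or C, against 43.2% in the Cd36 window.

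**Figure D4:**
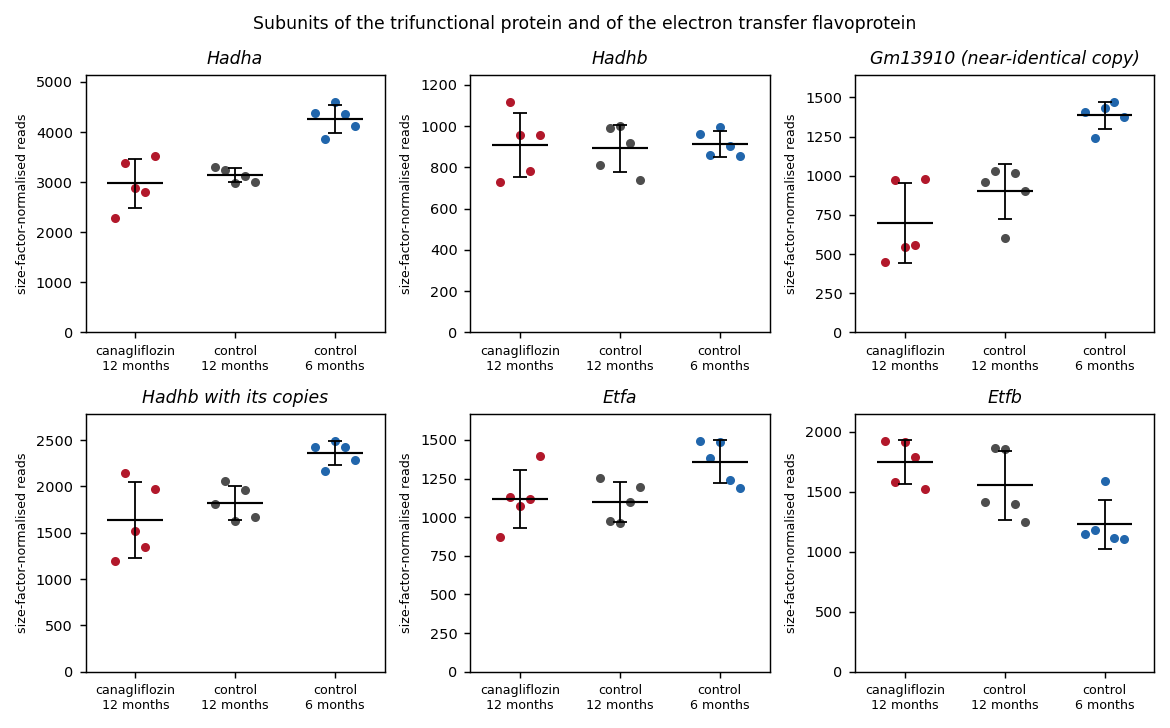
Size-factor-normalised reads of the subunits of the trifunctional protein (Hadha, Hadhb, the near-identical Gm13910, and Hadhb with its copies added) and of the electron transfer flavoprotein (Etfa, Etfb), 1 point per library with mean and SD (n = 5). The 6-month points lie above all others for Hadha, Gm13910 and the sum, overlap for Hadhb alone, and are mostly the lowest for Etfb.

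The electron transfer flavoprotein and its oxidoreductase pass electrons from the acyl-CoA dehydrogenases to ubiquinone. Etfb (ENSMUSG00000004610), the beta subunit, had 1920.3, 1584, 1914, 1789 and 1523 normalised reads in canagliflozin ovaries, 1412, 1865, 1859.6, 1401 and 1244 in 12-month control ovaries and 1148, 1185, 1591, 1114 and 1110.4 in 6-month control ovaries. All but 1 of the 6-month libraries lay below every 12-month library, and replicate 3 of the 6-month controls was the exception. Etfb rose 1.43-fold in canagliflozin ovaries against the 6-month controls (log2 fold change 0.51 with an SE of 0.13 and limma adjusted p = 0.00859) and was not called between the controls (log2 fold change 0.33, adjusted p = 0.108) or with the drug (0.18, adjusted p = 0.678). Exons of Etfb share 617 bases on the same strand with the separately listed gene Gm45233, which matches its transcript at 99.7%. With Gm45233 added, the difference from the 6-month controls was 0.51 (limma adjusted p = 0.00913), still a call. The Etfb transcript is in class 1, the shortest of 5 equal length classes of genes. The median log2 fold change of class 1 for canagliflozin over the 6-month controls was 0.20, against 0.01 over all genes. Fabp5, also called higher there, is in class 1 too. Of the genes called lower there, Slc27a6, Acadvl, Etfdh and Hsd17b4 are in class 2 (median -0.04). Decr1, Acat1 and Ppara are in class 3 (-0.10), and Slc27a4 and Hadha in class 4 (-0.12). The part of length in these results was not tested. Etfa, the alpha subunit, averaged 1118 ± 187 in canagliflozin ovaries, 1096 ± 129.9 in 12-month control ovaries and 1358 ± 139 in 6-month control ovaries, with log2 fold changes of opposite sign to Etfb against the 6-month controls (-0.29 and, with age, -0.31) that were not called (limma adjusted p = 0.075 and 0.0968).

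Etfdh (ENSMUSG00000027809), the oxidoreductase, had 545, 968, 619, 711 and 1119 in canagliflozin ovaries, 826, 717, 769, 763 and 851 in 12-month control ovaries and 1207, 978, 1076, 1033 and 1013 in 6-month control ovaries. The controls of the 2 ages did not overlap, and canagliflozin replicate 5 lay inside the 6-month range. Etfdh fell to 0.722 of the 6-month level in canagliflozin ovaries (log2 fold change -0.47 with an SE of 0.16 and limma adjusted p = 0.0332), while the controls differed by -0.43 with no call (limma adjusted p = 0.0814). Its exons share 278 bases with 4930579G24Rik, a protein-coding gene on the opposite strand.

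Among the acyl-CoA dehydrogenases, which open each cycle for short (Acads), medium (Acadm), long (Acadl) and very long chains (Acadvl), only Acadvl (ENSMUSG00000018574) was called in any comparison. It had 1096, 1131, 1134, 1246 and 1153 normalised reads in canagliflozin ovaries, 1222, 1282, 1097, 1210.1 and 1181 in 12-month control ovaries and 1329.97, 1384, 1645, 1238 and 1258 in 6-month control ovaries. The 6-month values lay higher, and replicate 4 of the canagliflozin group and replicate 2 of the 12-month controls reached into their range. Acadvl fell to 0.844 of the 6-month level in canagliflozin ovaries (log2 fold change -0.24 with an SE of 0.08 and limma adjusted p = 0.036), a call that 12 of the 29 other settings ended. Its exons share 1151 bases with Dvl2, a protein-coding gene on the opposite strand. Strand use in the counting is not given in the sources used here, so reads of the pair may be mixed. Acadm had no overlap between the controls of the 2 ages (1392 to 1495 in the 12-month and 1581 to 1915 in 6-month control ovaries), yet was not called (log2 fold change -0.23, limma adjusted p = 0.131). Acads and Acadl, neither called, differed with age by -0.11 and -0.11.

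Decr1 (ENSMUSG00000028223), the reductase needed for polyunsaturated chains, had the smallest p of the 15 in the drug comparison, at 0.166 before adjustment (limma adjusted p = 0.661). It had 404, 636, 474, 482 and 643 normalised reads in canagliflozin ovaries, 555, 688, 643, 531 and 541 in 12-month control ovaries and 704, 696, 733, 654 and 613 in 6-month control ovaries. Canagliflozin replicates 1, 3 and 4 were below all controls, and replicates 2 and 5 were among them. Decr1 fell to 0.765 of the 6-month level in canagliflozin ovaries (log2 fold change -0.39 with an SE of 0.12 and limma adjusted p = 0.0291). The other genes of the cycle, the hydratase Echs1, the dehydrogenase Hadh, the isomerases Eci1 and Eci2 and the thiolase Acaa2, were not called in any comparison. Their log2 fold changes ran from -0.05 (Acaa2) to 0.13 (Eci1) with the drug, from -0.20 (Hadh) to 0.05 (Eci1) with age and from -0.18 (Hadh) to 0.18 (Eci1) for canagliflozin over the 6-month controls.

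In peroxisomes, the multifunctional enzyme Hsd17b4 (ENSMUSG00000024507), which acts on very long and branched chains, was the gene called. Its normalised reads were 744, 1076, 749.8, 1021 and 1089 in canagliflozin ovaries, 1035, 1019.7, 852, 1038 and 1036 in 12-month control ovaries and 1268, 1137, 1169, 1304 and 1131 in 6-month control ovaries. All 6-month libraries exceeded all 12-month libraries of both groups. Hsd17b4 fell to 0.769 of the 6-month level in canagliflozin ovaries (log2 fold change -0.38 with an SE of 0.11 and limma adjusted p = 0.0216) and was not called between the controls (log2 fold change -0.27, limma adjusted p = 0.135). Ehhadh, the other peroxisomal bifunctional enzyme, averaged 75.8 ± 32.8, 80.8 ± 28.5 and 83.2 ± 10.9 in canagliflozin ovaries, the 12-month controls and the 6-month controls, and Acaa1a, a peroxisomal thiolase, 1224 ± 194, 1183 ± 126 and 1187 ± 266. Neither was called in any comparison. Acaa1a shares 290 exon bases with Myd88, a protein-coding gene on the opposite strand, and matches Acaa1b at 96.6%. Its reads are therefore uncertain in the same way as those of Fabp3, whose pseudogene Fabp3-ps1 matches at 99.3%, and of Acsl3, matched by Utp14b at 98.2%. Etfa is matched at 95.1% by Gm15289, which averaged 5.03 normalised reads. With all such copies added, Hadhb was the one gene among the 37 whose call changed.

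Ketone use was represented by Bdh1, which oxidises 3-hydroxybutyrate to acetoacetate, Oxct1, which activates acetoacetate, and Acat1, the thiolase that splits the product into acetyl-CoA. None of the 3 was called with the drug. Acat1 (ENSMUSG00000032047) had 991, 1518, 1084, 937 and 1208 normalised reads in canagliflozin ovaries, 1026, 1546, 1515, 1269 and 1369 in 12-month control ovaries and 1536, 1463, 1801, 1492 and 1493 in 6-month control ovaries. Most canagliflozin libraries lay below the 6-month range, replicate 2 lay within it, and the 12-month controls overlapped both groups. Acat1 fell to 0.728 of the 6-month level in canagliflozin ovaries (log2 fold change -0.46 with an SE of 0.13 and limma adjusted p = 0.0179), and the drug difference at 12 months was -0.24 (SE 0.13, limma adjusted p = 0.596). Oxct1 averaged 1559.7 ± 307 in canagliflozin ovaries, 1390.3 ± 377 in 12-month control ovaries and 1338 ± 81.0 in 6-month control ovaries, and its drug interval was 0.897 to 1.43-fold. Bdh1 varied most of the 37 among 12-month controls, from 81.2 to 454, with the highest value in replicate 3, and its drug interval of 0.629 to 2.52-fold is the widest of the 37.

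Ppara (ENSMUSG00000022383), the nuclear receptor that drives this pathway in liver, was the least abundant of the 37 per kilobase. It had 37.7, 26.8, 30.6, 12.9 and 42.0 normalised reads in canagliflozin ovaries, 33.4, 43.7, 21.1, 49.2 and 39.1 in 12-month control ovaries and 48.3, 51.8, 44.8, 61.9 and 61.5 in 6-month control ovaries. The canagliflozin values lay below all 6-month values, with replicate 4 the lowest, and the 12-month controls overlapped both groups. Ppara fell to 0.534 of the 6-month level in canagliflozin ovaries (log2 fold change -0.91 with an SE of 0.29 and limma adjusted p = 0.0274), with no call for age (log2 fold change -0.56, limma adjusted p = 0.226) or the drug (-0.35, adjusted p = 0.704).

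Further genes of the pathway were taken from lists of 80 names, of which 75 were in the table and 69 passed the filter. With the drug 0 of the 69 were called by limma, against 0.00569% of all genes, 9 had an unadjusted p under 0.05, against 9.2%, and the median log2 fold change was 0.08, against 0.00 over all genes (-0.00186 before rounding). In the lists the smallest p belonged to Rxra, the partner receptor of PPARs (-0.33, limma adjusted p = 0.397), then to the monoglyceride lipase Mgll (0.45), the triglyceride lipase Pnpla2 (0.30), the lipid droplet coat Plin2 (-0.38) and the coactivator Ppargc1b (0.74), each at an adjusted p of 0.462. Ppargc1b was low, at 53.5, 25.3, 25.7, 22.8 and 23.0 in canagliflozin ovaries against 13.4, 14.6, 19.3, 15.4 and 21.7 in 12-month control ovaries, groups that did not overlap, with canagliflozin replicate 1 far above the rest. Acaca (0.37) and Cpt1b (0.57) of the malonyl-CoA and shuttle list, Ech1 (0.20) and Acox3 (0.23) of the peroxisomal list, Acot7 (0.26) and Acot1 (-0.35) of the thioesterases, and Slc16a7 (-0.37) of the ketone list were also the closest to a call in their lists, without one. The same held for Gpihbp1 (0.57) and Dbi (0.25) of the uptake list and for Acad9 (-0.17) and Hsd17b10 (0.13) of the mitochondrial list. Fabp1, Fabp2, Acox2, Oxct2a and Oxct2b were not analysed here.

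With age 3 of the 69 were called higher and 8 lower, against 5.4% and 7.01% of all genes tested, so both shares are near the background. In the uptake list 3 genes were called higher (Lpl, Gpihbp1 and Fabp4) and 2 lower (Cav1 and Got2). Lpl, the lipoprotein lipase that frees fatty acids from circulating triglyceride, had 1844, 1277, 1557, 1796 and 855 in canagliflozin ovaries, 1737, 1241, 1319, 1465 and 1438 in 12-month control ovaries and 824, 551, 658, 822 and 661 in 6-month control ovaries. All 6-month values lay below all 12-month values. Lpl was 2.06-fold higher in the 12-month than in 6-month control ovaries (log2 fold change 1.04 with an SE of 0.18 and limma adjusted p = 0.00207). Gpihbp1, which holds the lipase on capillary walls, rose by 1.51 (adjusted p = 0.0151), and Fabp4, the binding protein of fat cells, macrophages and capillary endothelium, by 2.51 (adjusted p = 0.00416, all limma). Fabp4 averaged 264 ± 120.4 in canagliflozin ovaries, 238 ± 127 in 12-month control ovaries and 40.7 ± 26.1 in 6-month control ovaries. The 8 that fell included the acetyl-CoA carboxylase of the outer mitochondrial membrane, Acacb (-0.67, adjusted p = 0.00513), the dehydrogenase Acad10 (-0.72), Rxra (-0.65), Ppard (-0.45), Cav1 (-0.36), Got2 (-0.35) and the lysosomal lipase Lipa (-0.56).

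Between canagliflozin and 6-month control ovaries 8 of the 69 were called higher and 12 lower, against 13.5% and 14.9% of all genes, again near the background, with a median of 0.03. The higher ones were Lpl (1.02), Gpihbp1 (2.08), Fabp4 (2.75), Acaca, the cytosolic acetyl-CoA carboxylase (0.70), Mlycd, which breaks down malonyl-CoA (0.51), Mgll (0.73), Acot7 (0.46) and Hsd17b10 (0.35). The lower ones included Acacb (-0.77), Rxra (-0.97, limma adjusted p = 1.21e-05), Plin2 (-0.57), Acad10 (-0.72), Acad12 (-0.55), Acot1 (-0.71), Acsbg1 (-0.45), Ppard (-0.37), Cav1 (-0.42), Got2 (-0.34) and Lipa (-0.90). Acaca averaged 823 ± 220.3 in canagliflozin ovaries, 618 ± 28.5 in 12-month control ovaries and 495 ± 67.0 in 6-month control ovaries, and Acacb 368 ± 65.0, 394 ± 68.3 and 619.95 ± 56.4 in the same groups.

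Some markers of cell types that also handle lipid were called with age beside these genes, where 12.4% of all genes tested were called. Of the 11 fat cell markers 8 were tested, and of these 8, 5 were called higher in the 12-month than in 6-month control ovaries, Cfd (3.68), Adipoq (3.20), Cidec (2.41), Retn (2.40) and Pck1 (1.63). The other 3 tested were not called and had age differences of -0.73 (Plin4), -0.31 (Plin1) and 0.00 (Acvr1c, -0.00315 before rounding). Plin4 and Plin1 had their highest group mean in 6-month control ovaries. Adipoq, the hormone adiponectin of fat cells, was 9.74, 32.8, 10.9, 12.9 and 2.00 in canagliflozin ovaries, 56.3, 54.3, 1.84, 10.3 and 7.82 in 12-month control ovaries and 0.948, 0, 0, 2.54 and 0.991 in 6-month control ovaries, so that it was near or at 0 in every 6-month ovary and varied widely at 12 months. Of 10 endothelial markers 1 was called higher (Gpihbp1) and 2 lower (Vwf, -1.33, and Cdh5, -0.45), of 9 macrophage markers 2 lower (Adgre1, -1.31, and Csf1r, -1.06), and of 6 smooth muscle markers 1 lower (Myh11, -0.82). Of 10 genes on the corpus luteum list 2 were called higher (Inhba, 1.93, and Prlr, 0.78). Of 8 granulosa markers 2 were called higher (Nr5a2, 0.75, and Gja1, 0.54), and no theca, oocyte or red cell marker was called. Inhba went against most of its list in canagliflozin ovaries, at 22228 in replicate 1, the highest, and 5585 in replicate 2, the lowest. It is therefore uncertain as a luteal marker here, and it enters the sum and score of that list. Over all genes 5.4% were called higher with age and 7.01% lower, so counts of 1 or 2 in lists this short say little about a cell type. Between canagliflozin and 6-month control ovaries, 4 fat cell markers were called higher and 2 lower, 3 corpus luteum, 2 granulosa and 4 endothelial markers were called higher, and 4 macrophage, 3 smooth muscle, 2 endothelial, 2 theca and 2 oocyte markers were called lower. Over all genes 28.4% were called in that comparison, 13.5% higher and 14.9% lower. Limma called no marker of these lists with the drug.

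The summed luteal markers ran from 185780 to 460640 normalised reads in canagliflozin ovaries, from 206420 to 376980 in 12-month control ovaries and from 206880 to 308000 in 6-month control ovaries. Summed macrophage markers ran from 1729.5 to 2820.2 in canagliflozin ovaries, from 1559.5 to 3886 in 12-month control ovaries and from 2572 to 4507 in 6-month control ovaries. Endothelial sums were 5228 to 8244, 5426.5 to 6331 and 5993 to 6503 in the same order, granulosa sums 41425 to 65765, 37531 to 68377 and 31471 to 45306, and smooth muscle sums 7486 to 15897, 7858 to 14669 and 13241 to 19225. Theca sums were 11578 to 18419, 16481 to 32837 and 21337 to 25835, and oocyte sums 1357 to 2686, 2069 to 3163 and 2215 to 3187. With a corpus luteum score as a covariate 9 of the 37 genes were called with age in place of 4, with Cpt1a, Etfa, Etfb, Etfdh and Hsd17b4 joining, while the calls over all genes became 2583 in place of 2179. With a fat cell score 2 were called, Fabp5 and Slc27a6, and 937 over all genes. Because that score itself differed with age, this fit cannot tell fat cell content and age apart. The part of these cell types in the members' differences was not tested beyond these fits.

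**Figure D5:**
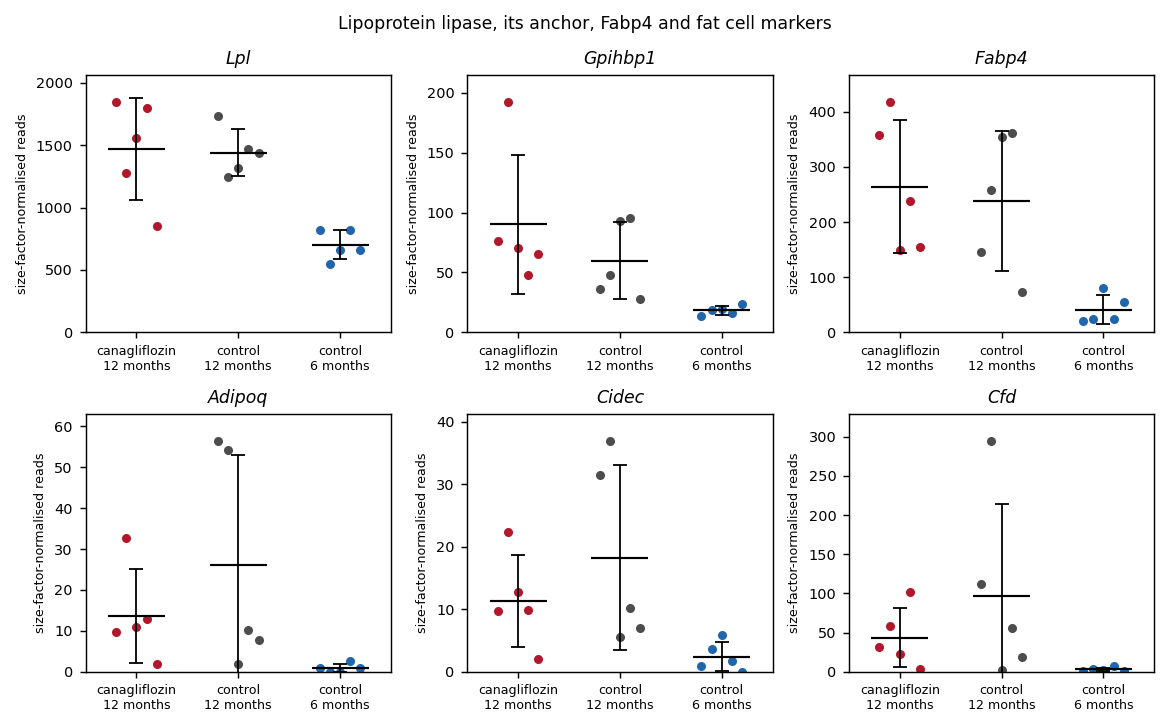
Size-factor-normalised reads of Lpl, Gpihbp1 and Fabp4 and of the fat cell markers Adipoq, Cidec and Cfd, 1 point per library with mean and SD (n = 5). The 6-month means are the lowest in all 6 panels, and the 12-month points of both groups spread widely for the fat cell markers, which are 3 of the 5 of 8 tested that were called higher with age.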

How the data were processed

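RNA-seq of 15 ovaries was analysed, 5 libraries per group. Libraries came from a directional poly(A) kit sequenced on a NovaSeq, per the labels' protocols. The submitters' processing notes name the build mm39 and Partek 11.0. Aligner, counter, annotation and normalisation: not given in the sources used here. The deposited table holds a signal per gene, reads divided by 1 size factor per library, as the low values show: at least 99.987% of values in each library were whole reads within a tolerance of 0.1 read. Read totals recovered this way far exceed the sequencing depth that the labels give, and the recovered totals are reported. In 3 libraries (canagliflozin replicates 4 and 5 and 6-month control replicate 5) 1 read was worth close to 1, so whole values tell less there.

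Main fits took log2(value + 1) into limma 3.58.1 under R 4.3.3, with a mean-variance trend and robust moderation, over all 15 libraries, after a filter of 10 in at least 5 libraries that kept 17569 of 24656 genes, with Benjamini-Hochberg adjustment over all of them. EdgeR 4.0.16 and DESeq2 1.42.0 were run on recovered reads as alternatives. Tested on simulated data in the drug comparison (17569 genes, 50 changed per fold), the fit recovered 46% of 1.5-fold, 74% of 2-fold and 94% of 4-fold rises. It recovered 66% of 2-fold falls, and 5 of 145 calls were false. The changed genes were drawn above a minimum mean level. The real drug comparison had 1 call, so its adjusted threshold was stricter and these shares overstate what it could recover. Nothing in the labels ties mice to litters or cages, so p-values measure the spread between these libraries.

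The 37 genes and all lists were chosen with earlier results of these data known. Values in every library are given for genes called in any comparison and for the genes with the smallest drug p and the smallest age p of each step, and other genes named outside that rule were chosen after their values were seen. Near-identical transcripts were found with blastn 2.17.0 (identity at least 95% over at least 200 bases). Transcript lengths and exon overlaps came from a GRCm38 annotation, used for names, lengths and overlaps, and promoter windows from RefSeq on GRCm38.p6. Promoters were matched by symbol. Some genes of the wider pathway lists are counted but not reported by name here.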

Additional observations from a re-analysis of the deposited data

Results flagged for a closer look

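Among 111 groups of 5 libraries (37 genes in 3 groups), 9 held a library set apart from the other 4 by more than 0.71 of the group's range, the critical value of Dixon's test, which chance passes in about 5% of groups. In the canagliflozin group these were Cpt2 in replicate 5 (1304, others 753 to 898), Slc25a20 in replicate 2 (611, others 453 to 483) and Acadl in replicate 4 (1303, others 1702 to 1816). Among the 12-month controls they were Cd36 in replicate 2 (592, others 274 to 355) and Hsd17b4 in replicate 3 (852, others 1019.7 to 1038). Among the 6-month controls they were Acsl5 in replicate 5 (643, others 758 to 785) and 3 genes in replicate 3, namely Slc25a20 (596, others 458 to 470.2), Etfb (1591, others 1110.4 to 1185) and Acat1 (1801, others 1463 to 1536). All values are size-factor-normalised reads.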

How the results depend on the processing

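With the drug, limma called 0 of the 37 genes under each of its settings, with 1 at an unadjusted p under 0.05, edgeR called 0 and DESeq2 called 1 (Cd36), where over all genes they called 9 and 63. With age, 4 calls became 9 with only the 2 groups fitted, 9 with the corpus luteum score as a covariate and 2 with the fat cell score, while 2179 calls over all genes became 2674, 2583 and 937 under the same settings. Leaving out 1 library at a time gave 3 to 7, with 7 without canagliflozin replicate 1. For canagliflozin over the 6-month controls, 11 calls became 6 with the fat cell score and 15 with equal library totals, while 4982 over all genes became 3754 and 5220. Equal totals moved the median of all genes to -0.09 in that comparison and to -0.11 with the drug. Leaving out 1 library in that comparison gave 6 to 12, with 6 when canagliflozin replicate 3 was left out and 7 when canagliflozin replicate 1, or replicate 1 or 3 of the younger controls, was left out. Without both canagliflozin replicate 2 and 12-month control replicate 3, a setting added after seeing the data, 13 were called. Slc27a6, Fabp5, Hadha and Etfb were called in that comparison under all 29 other settings. Acadvl lost its call in 12 of the 29, Slc27a4 and Etfdh in 9 each, Decr1 in 8, and Hsd17b4 and Acat1 in 3 each. Ppara lost its call in 6 of the 28 settings that tested it. It was filtered out where a mean value of at least 50 was required. The causes were not tested.

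Replicate numbers did not pair the libraries (correlation of same-numbered deviations -0.298 to 0.249, median -0.034, 15 pairs). With a replicate block the counts were 0 with the drug, 3 with age (Cd36 at adjusted p = 0.051) and 9 for canagliflozin over the 6-month controls. No called gene changed direction under any setting run, and the median of the 37 with the drug took either sign. Medians stayed between -0.17 and -0.11 with age, between -0.28 and -0.10 for canagliflozin over the 6-month controls and between -0.09 and 0.07 with the drug. Depth limits the low genes most, such as Ppara and Slc27a6.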
